A study of Homo sapiens with 60 samples.

Results

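The 35 genes described here encode aminoacyl-tRNA synthetases, the enzymes that join each amino acid to its transfer RNA. They were chosen by name from the 60675 gene identifiers of the deposited table: 19 encode enzymes of the cytosol and 16, with symbols ending in 2, encode enzymes of the mitochondrion. All 35 were matched to 1 identifier each, and all 35 passed the filter on low counts that left 17764 genes in the tests. For the cytosolic genes the annotation used for naming (GENCODE 29) gives most symbols without the final 1 (GARS for GARS1).

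A cell keeps separate sets of synthetases for cytosolic and mitochondrial translation, and both sets are encoded in the nucleus. In the cytosol several synthetases sit together in a multi-synthetase complex, held by scaffold proteins, while the others act as free enzymes. GARS1 and KARS1, which charge glycine and lysine transfer RNA, each make both the cytosolic and the mitochondrial enzyme and were counted as cytosolic. When amino acids run short, uncharged transfer RNA activates the kinase GCN2 (gene EIF2AK4), translation of the transcription factor ATF4 rises, and many cytosolic synthetase genes are known ATF4 targets.

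The libraries were mRNA sequencing libraries from A549, a human non-small cell lung carcinoma line, treated for 24 h. There were 60 libraries in 25 groups: 3 vehicle libraries (0.1% DMSO in the sample labels, 2% in the design text) and 8 herbal extracts at 20, 100 and 500 µg/mL. The water extract of Sibjeondaebo-tang, a herbal formula, had 3 libraries per dose, and that of Palmul-tang, another formula, had 2. Ethanol extracts of Poria, Atractylodis, Glycyrrhizae (licorice root) and Ginseng had 3 libraries per dose, and those of Angelicae and Paeoniae had 1. All extract groups share the cell line and the time, and the labels do not say that replicates were separate cultures, so p-values measure the spread between these libraries, which may be technical. The design text states that extracts with a lower IC20 were given at lower doses, whereas the labels used here give 20, 100 and 500 µg/mL for every extract. The positive control named in the design text was not analysed here.

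Total counts lay between 18602484 and 29764358 per library, and genes of the mitochondrial genome took 14.5 to 25.9% of counts. Epithelial and A549-typical markers were present in every library, from EPCAM (14.5 to 21.6 counts per 1000000 counts, CPM) to ALDH1A1 (3030 to 4810 CPM). The leukocyte and endothelial markers PTPRC, CD3E, VWF and CDH5 stayed at or below 0.0833 CPM and PECAM1 at or below 0.503 CPM, but CD14, a monocyte marker, had 1.65 to 3.99 CPM in every library. Of the fibroblast markers COL1A2 and PDGFRB stayed at or below 0.419 CPM, while COL1A1 had 1.43 to 2.96 and DCN 3.0 to 6.14 CPM. No 2 libraries held identical values.

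Between genes, levels were compared per kilobase of the principal transcript. In the 3 vehicle libraries KARS1 was highest at 91.8 ± 1.47 CPM per kb (SD, n = 3), followed by AARS1, the alanine enzyme, at 68.7 ± 1.62. GARS1 (57.3 ± 0.897) and FARSA (53.9 ± 3.65), a subunit of the phenylalanine enzyme, came next and lay within their spread of each other. The highest mitochondrial gene was the isoleucine enzyme IARS2 at 41.0 ± 3.08 CPM per kb, rank 12 of 35, and the lowest was the alanine enzyme AARS2 at 2.65 ± 0.17. At 500 µg/mL Glycyrrhizae the order of these per-kilobase levels was headed by AARS1 (153 ± 4.42) and GARS1 (149 ± 1.83), which lay within their spread of each other, and KARS1 (88.3 ± 2.49) was at rank 5.

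The first comparison asked how each extract changed the genes between its lowest and highest dose. With Glycyrrhizae extract, 13 of 19 cytosolic synthetase genes rose and 2 fell between 20 and 500 µg/mL, while 3 of 16 mitochondrial genes rose and 6 fell. The median change was 0.63 on the log2 scale for the cytosolic and −0.13 for the mitochondrial genes, against 0.0016 over all genes tested. Over all 17764 genes 37.0% passed the same test (edgeR's quasi-likelihood test, Benjamini-Hochberg adjusted p under 0.05), 18.5% higher and 18.4% lower, so a call by itself was common in this comparison. Of the cytosolic genes 5 rose by 2-fold or more, and no mitochondrial gene changed by as much. The share of all genes that passed 2-fold is not given here. Nor is the share whose groups did not overlap, in this or any other comparison. Non-overlap of a member is therefore only a description of its values.

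**Figure D1:**
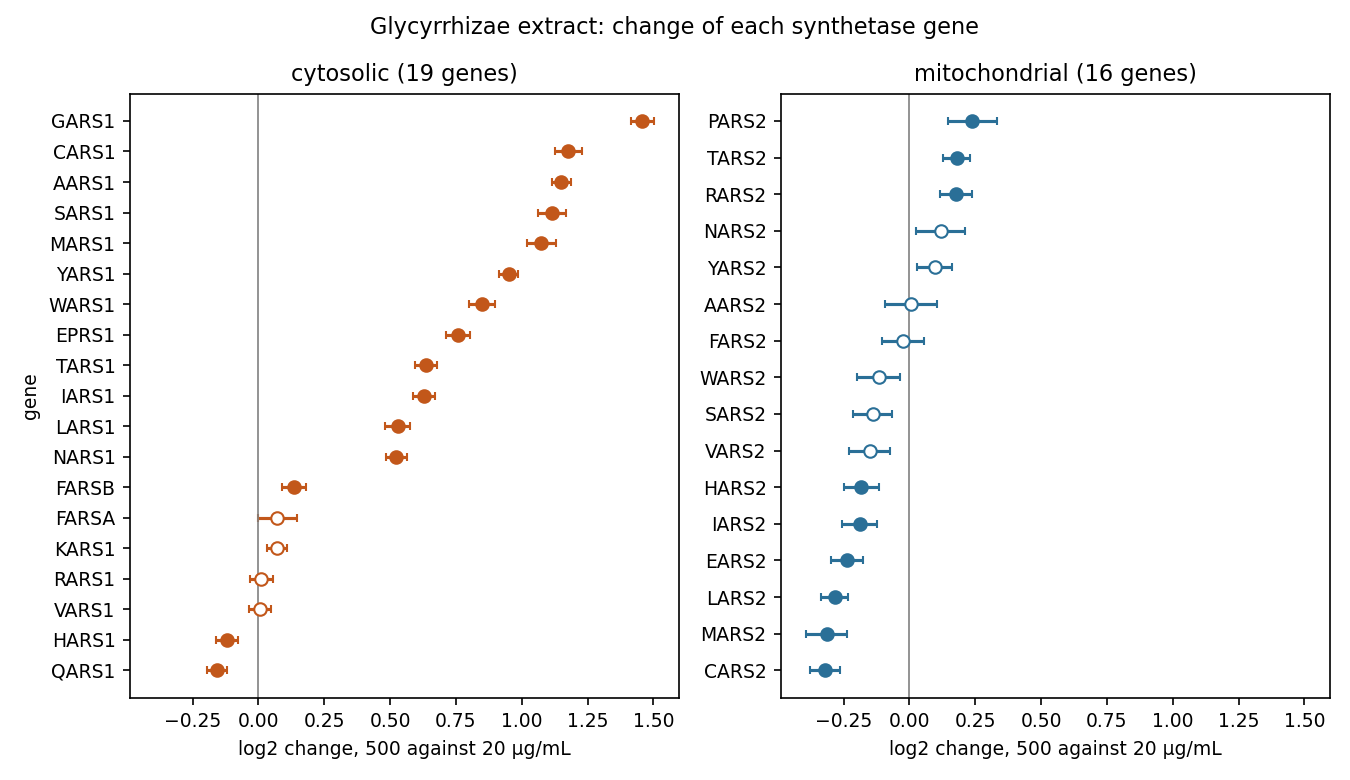
Log2 change (x axis) of each gene (y axis) between 20 and 500 µg/mL Glycyrrhizae extract, 3 libraries per dose, with bars of 1 standard error; filled points passed the test and open points did not. Of the 19 cytosolic genes 12 lie between 0.52 and 1.46, apart from the other 7, whereas the 16 mitochondrial genes lie between −0.32 and 0.24.

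The glycine enzyme GARS1 (ENSG00000106105, chr7:30594681-30634033, plus strand, GRCh38 with GENCODE 29) had 146.2, 137.0 and 145.8 CPM at 20 µg/mL and 398.3, 388.9 and 391.7 CPM at 500 µg/mL. It was the member with the highest fold, 2.75 (log2 change 1.46 ± 0.04 (SE, n = 3 per dose), edgeR adjusted p = 1.46e-29), and the groups did not overlap. The alanine enzyme AARS1 (ENSG00000090861, chr16:70252295-70289543, minus strand) went from 238.4, 245.2 and 236.0 to 521.3, 525.5 and 549.7 CPM (log2 change 1.15 ± 0.04, edgeR adjusted p = 7.84e-29). The cysteine enzyme CARS1 had 46.58, 49.25 and 45.0 CPM at the low dose and 102.1, 108.2 and 108.2 CPM at the high dose (1.18 ± 0.05). For both genes every library of the high dose lay above every library of the low dose.

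The serine enzyme SARS1 rose from 87.67, 80.97 and 89.02 to 187.7, 177.0 and 193.6 CPM, a log2 change of 1.12 ± 0.05 with no overlap. The tyrosine enzyme YARS1 rose from 115.1, 110.6 and 114.4 to 218.0, 216.5 and 223.0 CPM (0.95 ± 0.04). The tryptophan enzyme WARS1, which is also known as an interferon-induced gene, had 138.1, 120.3 and 138.8 CPM and then 241.7, 230.7 and 243.5 CPM (0.85 ± 0.05). Replicate 2 was the lowest of the 3 WARS1 values at both doses, and the doses did not overlap. The threonine enzyme TARS1 (0.64 ± 0.04) and the asparagine enzyme NARS1 (0.52 ± 0.04) also rose. Among the free enzymes 9 of 12 rose.

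Of the 7 members of the multi-synthetase complex 4 rose and 1 fell, so the complex did not move as a unit. The methionine enzyme MARS1 had 135.0, 142.7 and 134.2 CPM at 20 µg/mL and 269.7, 292.6 and 305.4 CPM at 500 µg/mL (log2 change 1.07 ± 0.06, edgeR adjusted p = 2.1e-20). EPRS1, a single protein that charges both glutamate and proline transfer RNA, rose from 172.3, 185.6 and 169.1 to 290.2, 297.8 and 302.3 CPM (0.76 ± 0.05). The isoleucine enzyme IARS1 (0.63 ± 0.04) and the leucine enzyme LARS1 (0.53 ± 0.05) rose by less. In each of these 4 genes the groups did not overlap.

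The glutamine enzyme QARS1, in the same complex, went the other way, from 125.4, 125.2 and 123.4 CPM to 110.7, 110.4 and 113.9 CPM (log2 change −0.16 ± 0.04, edgeR adjusted p = 0.000646). The lysine enzyme KARS1 had 171.7, 160.6 and 173.3 CPM and 175.4, 172.9 and 182.6 CPM (0.07 ± 0.04, edgeR adjusted p = 0.157), and its groups overlapped. The arginine enzyme RARS1 (0.01 ± 0.05) and, among the free enzymes, the valine enzyme VARS1 (0.01 ± 0.04) were not called either. The 2 subunits of the phenylalanine enzyme had changes of 0.07 ± 0.07 for FARSA, not called, and 0.14 ± 0.05 for FARSB, called with an edgeR adjusted p of 0.0153. The call of FARSB was lost in several of the other settings tried. Synthetases fall into 2 structural classes of catalytic domain, and both held genes that rose: 7 of 10 cytosolic class I genes and 6 of 9 class II genes.

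Among the mitochondrial genes the cysteine enzyme CARS2 (ENSG00000134905, chr13:110641412-110713603, minus strand) had 52.77, 53.77 and 49.11 CPM at 20 µg/mL and 38.86, 42.89 and 42.87 CPM at 500 µg/mL (log2 change −0.32 ± 0.06, edgeR adjusted p = 1.52e-05). The leucine enzyme LARS2 (ENSG00000011376, chr3:45388506-45549421, plus strand) fell from 32.52, 29.98 and 29.71 to 25.97, 25.11 and 24.62 CPM (−0.28 ± 0.05, edgeR adjusted p = 1.46e-05). The methionine enzyme MARS2 fell from 20.06, 19.16 and 18.25 to 15.35, 15.52 and 15.35 CPM (−0.31 ± 0.08). In these 3 genes every library of the high dose lay below every library of the low dose. The glutamate enzyme EARS2 fell from 48.35, 53.08 and 45.95 to 39.12, 42.45 and 43.32 CPM (−0.24 ± 0.06), again without overlap.

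The mitochondrial genes that rose were few and moved little. The threonine enzyme TARS2 had 33.69, 36.0 and 34.95 CPM and 39.69, 36.96 and 41.79 CPM (log2 change 0.18 ± 0.05, edgeR adjusted p = 0.004). The arginine enzyme RARS2 had 23.04, 20.63 and 20.57 CPM and 23.66, 25.28 and 23.77 CPM (0.18 ± 0.06, edgeR adjusted p = 0.0198). The proline enzyme PARS2 had 8.084, 9.735 and 9.105 CPM and 10.05, 11.59 and 10.21 CPM (0.24 ± 0.09, edgeR adjusted p = 0.0417). None of the 3 overlapped between doses, in a comparison where 44.1% of all genes had an unadjusted p under 0.05 (edgeR's quasi-likelihood test). The calls of PARS2 and RARS2 were lost in several other settings, and that of TARS2 was lost without replicate 3 of the high dose, where its log2 change was 0.1348 (edgeR adjusted p = 0.0599).

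Beside these and HARS2, the mitochondrial gene called lower was the isoleucine enzyme IARS2, at 150.1, 174.1 and 156.1 CPM and then 134.9, 140.8 and 145.5 CPM (log2 change −0.19 ± 0.07, edgeR adjusted p = 0.0246). Its groups did not overlap, and its call was lost when any of 3 single libraries was left out (replicate 1 or 2 of the high dose, replicate 2 of the low dose). The mitochondrial genes not called, beside WARS2, had log2 changes of 0.12 for NARS2, 0.10 for YARS2, 0.01 for AARS2, −0.02 for FARS2, −0.14 for SARS2 and −0.15 for VARS2.

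The histidine genes lie head to head on chromosome 5 (GRCh38), HARS1 on the minus strand and HARS2 on the plus strand, and their annotated spans overlap by 437 bases. HARS1 fell from 89.68, 88.46 and 91.3 to 79.46, 84.16 and 84.26 CPM (log2 change −0.12 ± 0.04, edgeR adjusted p = 0.0196), and HARS2 from 34.87, 36.12 and 33.86 to 27.56, 30.81 and 33.97 CPM (−0.18 ± 0.07, edgeR adjusted p = 0.0279). HARS1 did not overlap between doses, whereas the highest HARS2 value at 500 µg/mL lay within the range at 20 µg/mL. Both calls were lost in other settings, HARS2 with an edgeR adjusted p of 0.269 when replicate 1 of the high dose was left out. The mitochondrial tryptophan enzyme WARS2 had 9.481, 10.78 and 10.62 CPM and 9.44, 10.5 and 8.605 CPM (−0.12 ± 0.08, edgeR adjusted p = 0.287), with overlapping groups, beside the rise of WARS1.

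The exons of 16 members overlap a gene on the opposite strand in GENCODE 29, and the strand setting of the authors' counting is not given in the sources used here. Reads of such a pair cannot be told apart without strand. MARS1 is one of them, since its exons overlap those of ARHGAP9 and of DDIT3, a stress transcription factor gene that also rose. DDIT3 had 5.402, 5.679 and 5.871 CPM at 20 µg/mL and 24.72, 25.89 and 24.47 CPM at 500 µg/mL. The part of either neighbour in the MARS1 values was not tested.

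Between 20 and 100 µg/mL Glycyrrhizae no member was called by edgeR's quasi-likelihood test, against 0.788% of all genes. At an unadjusted p under 0.05 there were 4 cytosolic and 0 mitochondrial members, against 7.58% of all genes. Between 100 and 500 µg/mL 14 cytosolic and 9 mitochondrial members were called, against 36.0% of all genes. GARS1 had 153.9, 142.6 and 147.2 CPM at 100 µg/mL and 153.0, 151.3 and 148.3 CPM in the vehicle libraries, far below its values at 500 µg/mL. LARS2 had 31.24, 33.35 and 33.96 CPM at 100 µg/mL and its log2 change from there to 500 µg/mL was −0.38 ± 0.05 (edgeR adjusted p = 5.57e-08).

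**Figure D2:**
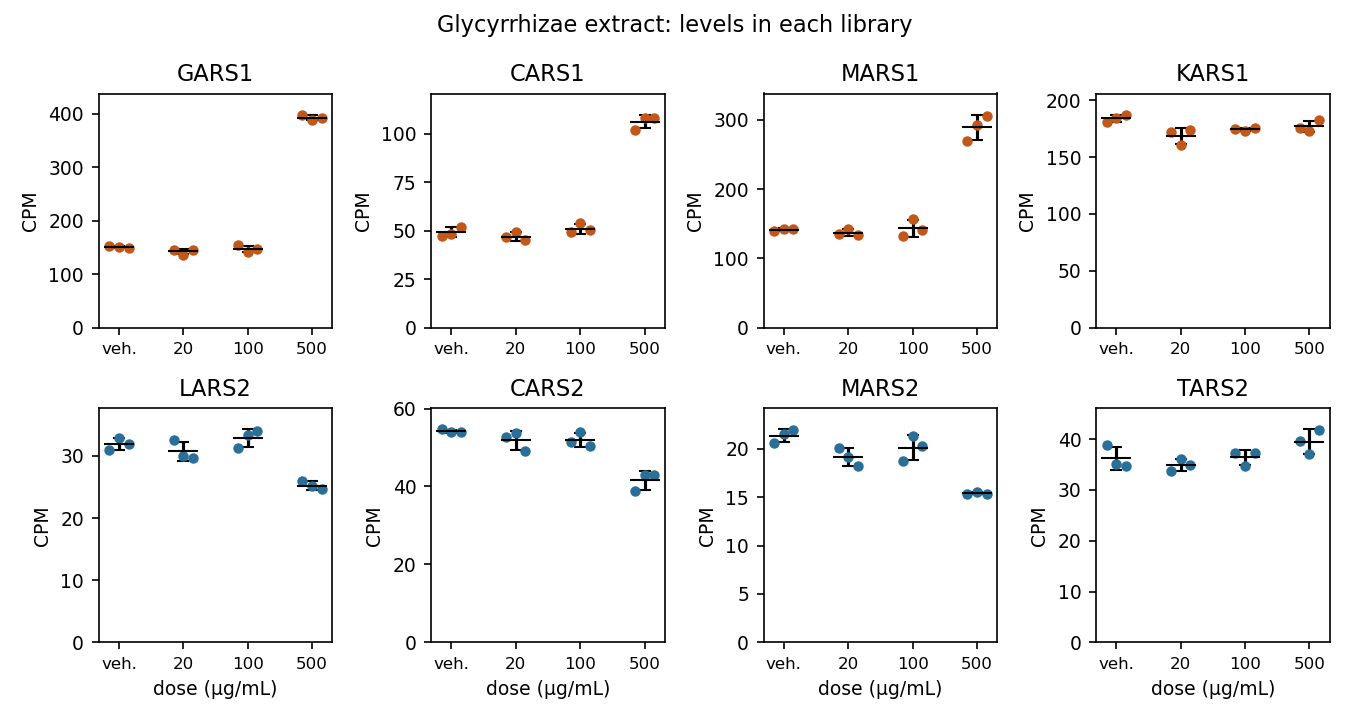
Level in CPM (y axis, from 0) in each vehicle library (veh.) and each library of Glycyrrhizae extract at 20, 100 and 500 µg/mL (x axis), n = 3 per group, with the mean and SD in black; cytosolic genes are orange and mitochondrial genes blue. GARS1, CARS1 and MARS1 stand apart at 500 µg/mL alone, KARS1 does not, and LARS2, CARS2 and MARS2 are lowest there.

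Summed over the 19 cytosolic genes, the level was 2479 ± 25.1 CPM (SD, n = 3) at 20 µg/mL Glycyrrhizae and 3977 ± 74.1 CPM at 500 µg/mL, a ratio of 1.6. Summed over the 16 mitochondrial genes it was 563 ± 18.5 and 516 ± 13.4 CPM, a ratio of 0.917. The difference between the mean log2(CPM + 1) of the classes was 2.7786 to 2.8609 in the 3 libraries at 500 µg/mL. In the other 57 libraries of the series it was 2.1251 to 2.2966, with a median of 2.219, so these 3 libraries lay above all others. The share of counts from the mitochondrial genome was 16.3 to 21.5% at 20 µg/mL and 19.2 to 22.8% at 500 µg/mL Glycyrrhizae, and its part in the results was not tested. In bulk RNA a change of RNA per cell and a change in the make-up of the culture cannot be told apart.

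The cell type markers moved with the same comparison. The 5 epithelial markers KRT8, KRT18, KRT19, EPCAM and CDH1 were all called lower at 500 than at 20 µg/mL Glycyrrhizae, with log2 changes from −0.78 (KRT8) to −0.30 (EPCAM), and their summed level was 6309 to 6602 CPM at 20 µg/mL and 3913 to 4209 CPM at 500 µg/mL. The summed level of the markers of other cell types was 10.24 to 10.79 and 10.58 to 10.85 CPM. Among these CD14 was called higher (0.50 ± 0.14, edgeR adjusted p = 0.00267) and DCN lower (−0.30 ± 0.10, edgeR adjusted p = 0.0176). The part of these shifts in the synthetase results was not tested.

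**Figure D3:**
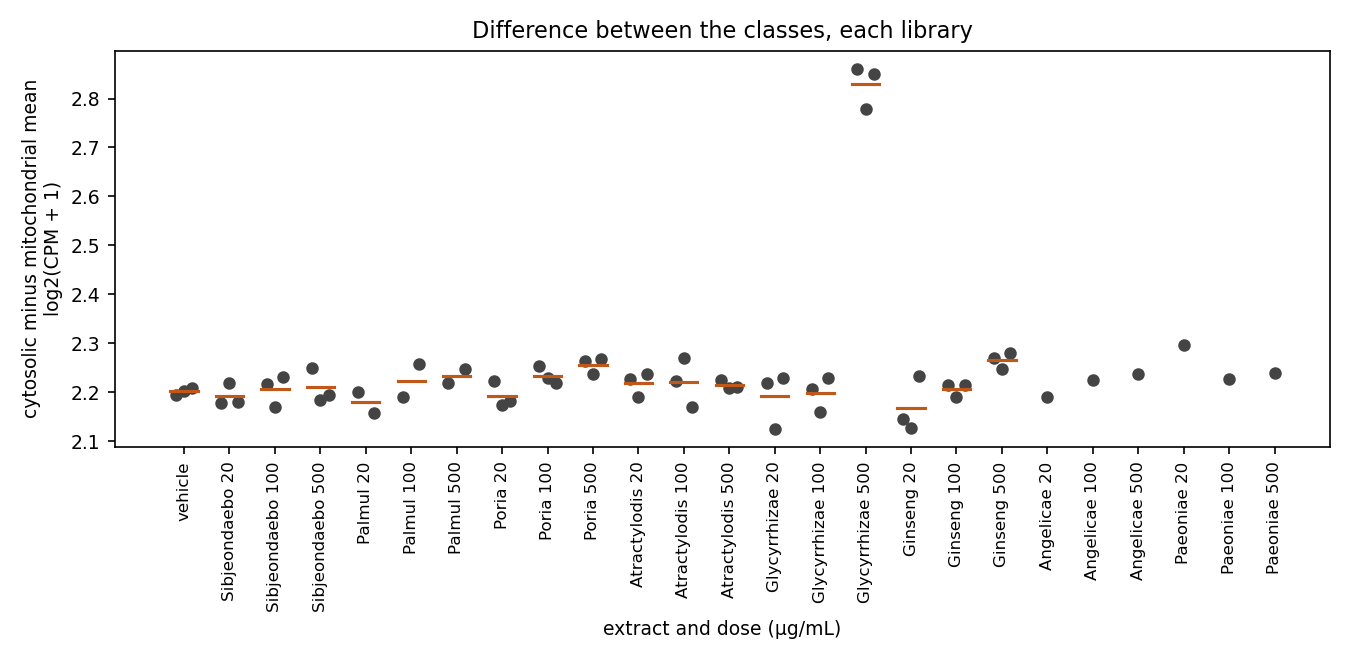
Difference between the mean log2(CPM + 1) of the 19 cytosolic and the 16 mitochondrial genes (y axis) in each of 60 libraries, by extract and dose in µg/mL (x axis); lines are group means where a group has more than 1 library. The 3 libraries of 500 µg/mL Glycyrrhizae lie at 2.78 to 2.86 and all others at 2.13 to 2.30.

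The same dose step moved few members in the other replicated extracts. By edgeR's quasi-likelihood test, no member was called with Sibjeondaebo-tang (3.78% of all genes called), Palmul-tang (2.08%), Atractylodis (0.208%) or Ginseng (1.20%). At an unadjusted p under 0.05 there were 5, 3, 1 and 5 of 35 members in these extracts in turn, against 15.0, 12.1, 6.85 and 9.64% of all genes. With DESeq2 there was 1 member with Ginseng and none with the other 3. With Poria 1 member was called, against 1.55% of all genes: YARS1 had 125.2, 118.9 and 118.8 CPM at 20 µg/mL and 138.7, 132.7 and 126.9 CPM at 500 µg/mL. Its log2 change was 0.13 ± 0.04 (edgeR adjusted p = 0.0438), and the call was lost when replicate 1 or 2 of the high dose or replicate 2 or 3 of the low dose was left out.

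The largest member change with Ginseng was that of GARS1, from 134.0, 132.6 and 143.9 CPM to 149.8, 152.2 and 154.6 CPM. The groups did not overlap, but the log2 change of 0.15 ± 0.04 was not called (edgeR adjusted p = 0.0686). Over the 5 replicated extracts other than Glycyrrhizae, the largest absolute log2 change was 0.16 for a cytosolic member (EPRS1, Palmul-tang) and 0.19 for a mitochondrial member (AARS2, Atractylodis). Neither was called.

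**Figure D4:**
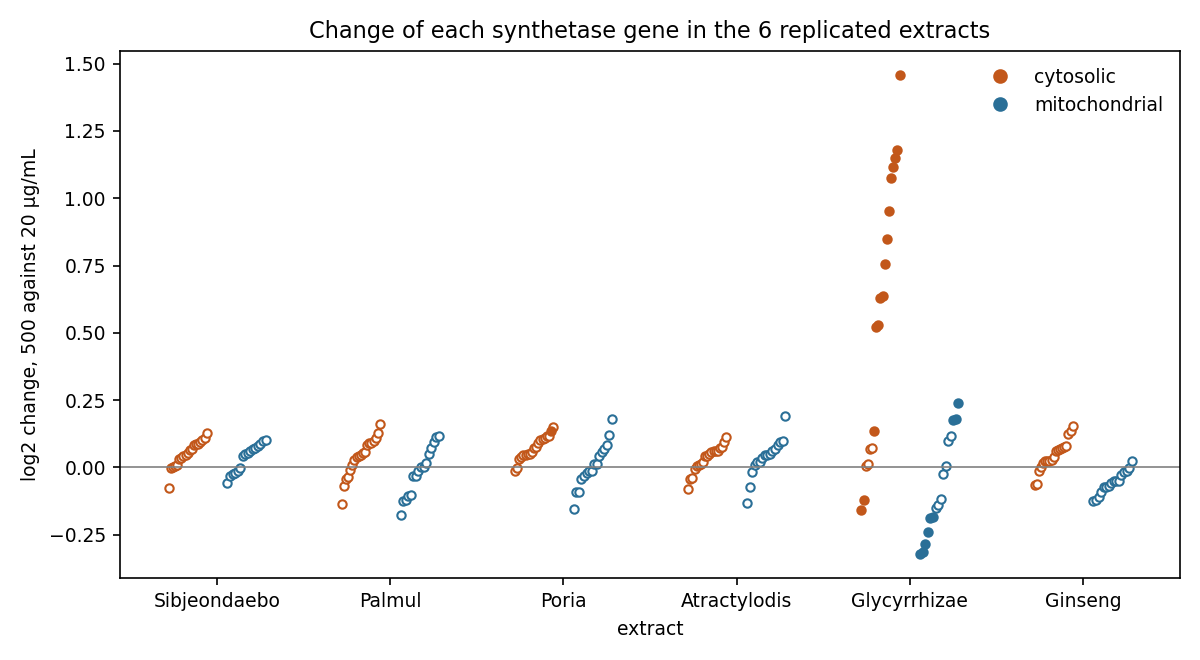
Log2 change between 20 and 500 µg/mL (y axis) of the 19 cytosolic (orange) and 16 mitochondrial (blue) genes in each of the 6 replicated extracts (x axis), genes sorted by change within a class; filled points passed the test. In the 5 extracts other than Glycyrrhizae all changes lie between −0.17 and 0.19, and 1 point, YARS1 with Poria, is filled.

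Whether the Glycyrrhizae change differed from that of another ethanol extract was tested directly against Ginseng, whose libraries carry sample codes of the same set. Of the 35 members 16 differed (edgeR's quasi-likelihood test of the interaction), against 21.0% of all genes (9.72% higher and 11.3% lower). The change was more upward with Glycyrrhizae in 12 cytosolic members and in TARS2, and more downward in CARS2, EARS2 and LARS2. The largest difference was that of GARS1, 1.30 ± 0.06 on the log2 scale (edgeR adjusted p = 1.42e-21). QARS1 and HARS1 were not among the called differences.

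Against the vehicle libraries 16 cytosolic and 9 mitochondrial members were called at 500 µg/mL Glycyrrhizae, where 46.8% of all genes were called. The counts at 500 µg/mL were 4 of 35 with Sibjeondaebo-tang (15.2% of all genes), 9 with Palmul-tang (22.2%), 7 with Poria (16.3%), 9 with Atractylodis (26.1%) and 10 with Ginseng (28.9%). With Palmul-tang the count fell to 5 without vehicle replicate 1 and to 4 without replicate 3 of 500 µg/mL Palmul-tang, and with Ginseng it fell to 6 without vehicle replicate 1. All of these comparisons share the 3 vehicle libraries, whose sample codes belong to another set than those of the extracts. Treatment and code set therefore cannot be told apart in them. The sample titles of vehicle and extract libraries alike carry the label BatchC, and the meaning of the code sets is not given in the labels.

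A few members differed from the vehicle with most extracts and doses. LARS1 was called higher in 18 of 18 vehicle comparisons, EPRS1 in 17 and IARS1 in 16, and SARS2, the mitochondrial serine enzyme, was called lower in 16. QARS1, which fell with Glycyrrhizae between 20 and 500 µg/mL, was called lower than the vehicle in 11 of 18. The share of all genes called against the vehicle, in the order Sibjeondaebo-tang, Palmul-tang, Poria, Atractylodis, Glycyrrhizae and Ginseng, was 24.1, 15.4, 19.5, 23.7, 28.8 and 28.8% at 20 µg/mL and 18.4, 20.2, 21.6, 21.8, 32.9 and 29.6% at 100 µg/mL. LARS1 had 74.09, 77.86 and 79.5 CPM in the vehicle libraries and 85.85 to 103.8 CPM (median 91.83) in the 54 extract libraries other than those of 500 µg/mL Glycyrrhizae. The ranges did not overlap. SARS2 had 68.57, 66.08 and 60.69 CPM in the vehicle libraries and 46.19 to 61.54 CPM in the same 54 libraries, which overlapped the lowest vehicle value.

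Angelicae and Paeoniae had 1 library per dose, so their values have no replicate check and no test. With Angelicae no member passed a 1.5-fold change of CPM + 1 between 20 and 500 µg/mL, where 0.355% of all genes passed upward and 0.417% downward. With Paeoniae 1 member passed upward (9.61% of all genes) and 2 passed downward (9.65%). CARS1 had 45.07, 47.64 and 70.46 CPM at 20, 100 and 500 µg/mL Paeoniae. VARS1 had 129.4, 128.0 and 79.93 CPM, and MARS2 had 15.77, 18.31 and 9.916 CPM.

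In the same Paeoniae libraries GARS1 had 148.5, 140.4 and 206.2 CPM and AARS1 had 225.5, 244.3 and 309.7 CPM, while RARS1 had 91.88, 93.47 and 64.48 CPM. The cytosolic genes therefore went both ways, with 8 of 19 higher at 500 than at 20 µg/mL and a median log2 ratio of −0.06 against −0.0004 over all genes. These Paeoniae libraries had mitochondrial genome shares of 25.9% at 20 and 24.3% at 500 µg/mL, above the median of 17.7% over the 57 libraries other than those of 500 µg/mL Glycyrrhizae.

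The other genes of the pathway were taken from lists, and their Glycyrrhizae changes between 20 and 500 µg/mL were set beside the members. The counts of these short lists are read against the 37.0% of all genes called in this comparison (18.5% higher and 18.4% lower), and those of the editing and the mitochondrial translation factor lists were near or below it. Of the 3 scaffold genes of the complex AIMP2 (log2 change 0.23) and EEF1E1 (0.23) rose and AIMP1 was not called. Of 5 cytosolic elongation factor genes 3 rose, led by EEF2 (0.25), which moves the ribosome along the message. Of 7 genes of editing and selenocysteine charging 1 rose (DTD1, 0.42, which removes D-amino acids from transfer RNA) and 1 fell (DTD2, −0.23).

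On the mitochondrial side, 2 aminoacylation helper genes fell: GATC (−0.30), a subunit of the enzyme that makes glutaminyl transfer RNA, and MTFMT (−0.20), which formylates the initiator transfer RNA. Of 8 mitochondrial translation factor genes 1 rose (MTIF2, 0.18) and 2 fell, the elongation factors TSFM (−0.42) and GFM1 (−0.17). Of 10 genes listed around the sensing of uncharged transfer RNA and ATF4, 8 rose and 1 fell. Neither the charging of transfer RNA nor the activity of GCN2 was measured. The sensor kinase gene EIF2AK4 was the one that fell (−0.17 ± 0.05, edgeR adjusted p = 0.00259), and GCN1, which couples it to the ribosome, was not called.

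In the same list of 10 genes, ATF4 had 191.5, 176.1 and 188.4 CPM at 20 µg/mL Glycyrrhizae. At 500 µg/mL ATF4 had 393.0, 383.1 and 389.0 CPM (log2 change 1.07 ± 0.05). The asparagine synthetase gene ASNS, an amino acid synthesis gene and no tRNA synthetase, rose by 2.82 ± 0.05 and CHAC1, a glutathione-degrading enzyme, by 3.42 ± 0.12. The rises of ASNS and CHAC1 were larger than that of any member. A part of ATF4 in the changes of the members was not tested. With Ginseng 3 of the 10 genes rose, where 0.552% of all genes did, ATF4, ASNS and CHAC1, by 0.19, 0.24 and 0.55.

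Because many members moved together, their RefSeq promoter windows (GRCh38.p14, 250 bases before to 50 after the start) were searched for TGATGNAAN, the C/EBP-ATF response element bound by ATF4 with C/EBP partners, on both strands. Windows were found for 30 of 35 members, and LARS1, VARS1, YARS1, AARS2 and VARS2 were not matched. The motif was in 7 of 16 cytosolic members with a window and in 1 of 14 mitochondrial members, YARS2, against 4.45% of all 27305 genes with a window and 3.61% of all 35116 windows. All 7 were among the 11 cytosolic members with a window that rose with Glycyrrhizae, and none of the other 5 held it. A gene was counted if any of its windows held the motif. CARS1, GARS1 and TARS1 each have another window, at another annotated start, without a match. A match is a description of the letters and not a measured binding site. The 7 cytosolic matches and that of YARS2 are shown, 5′ to 3′ on the strand of the gene, with the match in capitals and 8 bases on each side.
IARS1: ttcagcgcGTTGCATCAcctccgtg
MARS1: cggttccgGTTGCATCAgcgaggga
AARS1: ttctcgcaGTTGCATCAgccaagtt
CARS1: gggcggcgGTTGCATCAgattctag
GARS1: acgcggcgATTTCATCAtgctccga
NARS1: acgctctcTGATGCAACgccggaat
TARS1: gcctttcgATTGCATCAgctggtcc
YARS2: cacactgcTGATGGAAAaattaagt

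In GRCh38.p14 these stretches lie at chr9:92293695-92293719 (minus strand) for IARS1, chr12:57488055-57488079 (plus) for MARS1, chr16:70289678-70289702 (minus) for AARS1 and chr11:3057410-3057434 (minus) for CARS1. Those of GARS1, NARS1, TARS1 and YARS2 lie at chr7:30594836-30594860 (plus), chr18:57621806-57621830 (minus), chr5:33440958-33440982 (plus) and chr12:32756078-32756102 (minus). In 6 of the 8 the match reads as the reverse complement of the motif, and NARS1 and YARS2 carry it in the forward direction. The first base of the match was between −34 and 14 bases of the annotated start of its window in 6 genes. It was at −188 in AARS1 and −197 in YARS2. Positions are counted from 0 at the start base, with negative values before it. IARS1, MARS1, AARS1 and CARS1 carry the same 9 letters, GTTGCATCA, and NARS1 carries their reverse complement, TGATGCAAC. The log2 changes of these 5 genes ranged from 0.52 to 1.18. EPRS1, SARS1, WARS1 and FARSB rose without a match in their windows.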

How the data were processed

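The authors deposited expected counts per gene. Per the submitters' processing notes FastQC 0.11.9, Trim Galore 0.6.5, STAR 2.7.3a, RSEM 1.3.3 and the build hg38 (GRCh38) were used; the sources used here name neither annotation nor strand setting. RSEM splits ambiguous reads, and 76.0% of non-zero entries were whole (tolerance 1e-09). Of 270 columns 60 were used, and 210 that match no sample of the series were not. Counts were rounded and tested with edgeR 4.0.16 (R 4.3.3; filterByExpr, TMM, 1 mean per group over all 60 libraries, quasi-likelihood test, Benjamini-Hochberg over 17764 genes, threshold 0.05). CPM are counts per 1000000 of the TMM-scaled library size, and fold changes are fitted. Extracts with 1 library per dose were compared by log2(CPM + 1) with no test.

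On simulated data for the Glycyrrhizae 500 against 20 µg/mL comparison (17373 genes tested, 50 changed per size), 28 genes changed 1.25-fold, 34 changed 1.5-fold, 43 changed 2-fold and 49 changed 4-fold were recovered, and 3 of 17173 unchanged genes were called. In the simulation only these changed genes differed between groups, whereas 37.0% of all genes were called in the real comparison. The rates of recovery and of false calls may therefore differ there. Alternatives were DESeq2 1.42.0, RLE factors, no filter, a fit of only the groups compared, a replicate block and leaving out each library.

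Some genes of the marker and pathway lists are not reported here. The members and lists were chosen with earlier results of these data known. All members are given, with per-library values for the called members with the smallest adjusted p (8 cytosolic, 6 mitochondrial), for 2 not called or opposite in direction, and for HARS1, HARS2, WARS1 and WARS2. DCN, DDIT3 and other single genes outside this rule, and members added to it, were chosen after their values were seen.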

Additional observations from a re-analysis of the deposited data

Results flagged for a closer look

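For 16 members the change between 20 and 500 µg/mL differed between Glycyrrhizae and Ginseng by edgeR's quasi-likelihood test of the difference itself, with 3 libraries per group. The difference (Glycyrrhizae change minus Ginseng change, log2) was 1.30 for GARS1, 1.24 for CARS1, 1.09 for SARS1, 1.08 for AARS1, 1.05 for MARS1 and 0.88 for YARS1. It was 0.71 for WARS1, 0.70 for EPRS1, 0.57 for TARS1, 0.55 for IARS1, 0.54 for NARS1 and 0.49 for LARS1. Among mitochondrial genes it was 0.23 for TARS2, −0.25 for CARS2, −0.26 for EARS2 and −0.26 for LARS2. No group has the 4 or more libraries needed for a check of single libraries.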

How the results depend on the processing

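Between 20 and 500 µg/mL Glycyrrhizae, 12 cytosolic rises (all but FARSB), the falls of CARS2, EARS2, LARS2 and MARS2 and that of QARS1 kept their call in each of 11 settings, and 7 calls (FARSB, HARS1, HARS2, IARS2, PARS2, RARS2, TARS2) were lost in at least 1. Of 17 same-number pairs of libraries 6 had a correlation of deviations over 0.1 (range −0.128 to 0.193). With Poria (0.0641, 0.144 and 0.111) and Ginseng (0.0923, 0.15 and 0.193) they lay above all other pairs of the extract. With Sibjeondaebo-tang, Atractylodis and Glycyrrhizae they did not, and with Palmul-tang they were near 0 (0.00989). The main test did not pair libraries. With the replicate block 1 member was called with Sibjeondaebo-tang, 3 with Poria and 1 with Ginseng (500 against 20 µg/mL). DESeq2 called 2 with Poria and 1 with Ginseng. No filter gave 0 with Poria, and against the vehicle 2 with Sibjeondaebo-tang, 4 with Poria and 6 with Ginseng. A fit of only the groups compared gave 0 with Poria, and 2 with Sibjeondaebo-tang against the vehicle. The causes were not tested.

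Leaving out 1 library gave 20 to 22 members called for Glycyrrhizae 500 against 20, 0 to 1 for 100 against 20, 0 to 1 for Poria and 0 to 1 for Ginseng (500 against 20), and against the vehicle 4 to 10 with Palmul-tang and 6 to 10 with Ginseng. Uncalled changes near 0 turned sign: RARS1 (−0.0170 to 0.0257), FARS2 (−0.0545 to 0.0011), VARS1 (−0.0061 to 0.0214) and AARS2 (−0.0524 to 0.1158), and AARS2 was −0.0004 with no filter. Standard errors of the mitochondrial changes were up to 0.0982; counting error and spread between libraries were not separated.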

Other observations

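Within 13 amino acids that have 1 cytosolic and 1 mitochondrial member, the cytosolic change with Glycyrrhizae (500 against 20 µg/mL) was the higher of the pair in 12; arginine was the exception, with RARS2 called higher and RARS1 not called. In 4 pairs the cytosolic gene rose and the mitochondrial gene fell (cysteine, isoleucine, leucine and methionine), in 5 the cytosolic gene rose and the mitochondrial gene was not called, in 1 both rose (threonine) and in 1 both fell (histidine). As a ratio of mean CPM within a pair, CARS1 to CARS2 went from 0.905 to 2.56 and MARS1 to MARS2 from 7.17 to 18.8. HARS1 to HARS2 was 2.57 and 2.68. These ratios are between genes of unequal length and are read only as a change within a pair.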
